A study of Mus musculus with 6 samples.

Results

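Stretches of chromatin that carried H3K4me1 without H3K4me3 were examined in wild-type (WT) mouse germinal center (GC) cells. They were found by merging the peaks of 3 H3K4me1 libraries, keeping the regions held by 2 or more libraries (consensus regions), and leaving out every region that shared a base with an H3K4me3 consensus region made the same way from 3 H3K4me3 libraries. This left 473 of 8439 H3K4me1 consensus regions, a share of 5.6%. The other 7966 overlapped H3K4me3 and are used below for comparison. Because the members were selected on the peak calls of both marks, peak heights and the absence of H3K4me3 are given as descriptions without a test.

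The samples were Mint-ChIP libraries, a multiplexed chromatin immunoprecipitation for small cell numbers, from spleens collected on day 8 after sheep red blood cells were injected. Each of the 6 libraries was made from 50000 sorted cells of WT mice, and all carried the same genotype, treatment and time. The labels call the cells GC centrocytes, the light zone fraction of the GC, whereas the methods of the study speak of GC B cells, and the sources do not say whether the 3 libraries of a mark came from separate mice. An H3K27ac antibody is named in the extraction protocol of the labels, and the marks were taken here from the sample titles and the antibody labels (ab8895 for H3K4me1, ab8580 for H3K4me3).

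H3K4me1 is placed mainly at enhancers, by KMT2C and KMT2D, and primes them for later activation. H3K4me3 is concentrated at active promoters. Regions with H3K4me1 and no H3K4me3, away from transcription start sites (TSSs), are the usual operational definition of an enhancer, although the mark alone does not show that a region is active.

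The peak lists held 24136, 13923 and 11922 peaks for H3K4me1 and 41936 to 46707 peaks for H3K4me3. H3K4me3 peaks had a median width of 821 to 857 bp and covered 49.4 to 60.2 Mb per library, against 3.53 to 7.91 Mb for H3K4me1. An H3K4me3 peak within 1 kb of a TSS in 3 of 3 libraries was present at 12 of 12 GC B cell markers. Among genes of other cells it was present at 4 of 4 plasma cell markers, 1 of 8 T cell markers (Lat), 1 of 8 myeloid markers (Cd14) and 1 of 6 neuronal markers (Gad1). Peak lists hold no sequencing depth, so the depth behind each value is unknown, and peaks absent from a list may lie just under its threshold. The intervals given for shares are Wilson 95% intervals and cover counting error only.

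The reference sequences of 4 members and of 1 region overlapping H3K4me3 are shown, as 300 bp windows centred on the best summit. They were read from the plus strand of the RefSeq GRCm38 (mm10) assembly and capitals mark CpG dinucleotides, since CpG content was among the features by which the members differed from the other regions. The first is the member with the highest fold enrichment in its weakest library, the second the member with the highest summit, and the third the strongest member of 3 libraries that had no H3K4me3 peak in any library. The fourth is the member whose sequence recurs most often in the genome, and the last the strongest H3K4me1 region that overlapped H3K4me3. The Col15a1 window runs past its region, which is 216 bp wide.
Rapgef5 intron (chr12:117599963-117600262): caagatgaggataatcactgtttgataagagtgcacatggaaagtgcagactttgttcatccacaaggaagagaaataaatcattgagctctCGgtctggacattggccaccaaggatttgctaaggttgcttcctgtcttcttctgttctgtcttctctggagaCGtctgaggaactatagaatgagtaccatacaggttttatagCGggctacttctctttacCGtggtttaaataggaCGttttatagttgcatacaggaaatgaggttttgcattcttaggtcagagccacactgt
Col15a1 intron (chr4:47246946-47247245): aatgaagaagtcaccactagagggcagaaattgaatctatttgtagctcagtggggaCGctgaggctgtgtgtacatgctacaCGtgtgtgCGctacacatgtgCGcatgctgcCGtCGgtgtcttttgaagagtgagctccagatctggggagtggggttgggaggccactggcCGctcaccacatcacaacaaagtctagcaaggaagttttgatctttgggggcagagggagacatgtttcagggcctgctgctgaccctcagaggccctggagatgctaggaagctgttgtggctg
Nlk intron (chr11:78690964-78691263): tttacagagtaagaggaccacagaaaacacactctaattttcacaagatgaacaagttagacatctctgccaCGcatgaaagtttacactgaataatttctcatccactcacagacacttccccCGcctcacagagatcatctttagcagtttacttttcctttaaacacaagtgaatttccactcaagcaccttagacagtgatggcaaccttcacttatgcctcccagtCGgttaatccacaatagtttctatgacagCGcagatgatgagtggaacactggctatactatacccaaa
Repeat near 2310009B15Rik (chr1:138864913-138865212): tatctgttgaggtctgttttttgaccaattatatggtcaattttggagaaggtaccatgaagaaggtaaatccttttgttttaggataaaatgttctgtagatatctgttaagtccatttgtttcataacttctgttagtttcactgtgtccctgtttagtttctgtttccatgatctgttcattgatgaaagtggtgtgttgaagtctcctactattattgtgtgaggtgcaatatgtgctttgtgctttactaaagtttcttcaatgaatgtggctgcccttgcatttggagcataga
Cdc42se2 intron, overlapping H3K4me3 (chr11:54775622-54775921): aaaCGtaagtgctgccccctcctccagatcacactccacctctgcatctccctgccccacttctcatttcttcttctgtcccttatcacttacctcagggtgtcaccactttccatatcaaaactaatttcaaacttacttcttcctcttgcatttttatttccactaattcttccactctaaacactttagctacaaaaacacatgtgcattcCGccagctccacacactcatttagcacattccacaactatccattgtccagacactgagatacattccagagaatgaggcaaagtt
The windows hold 5 (Rapgef5), 7 (Col15a1), 4 (Nlk), 0 (the repeat) and 2 (Cdc42se2) CpGs. These single windows are examples and show neither the range nor the average of the members. The 300 bp windows of all members held 0 to 11 CpGs, with a median of 3. Values over all regions are given below.

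The members were seen in few libraries. Of the 473, 217 were held by replicates 1 and 2, 149 by replicates 1 and 3, 81 by replicates 2 and 3, and 26 (5.50%) by all 3 H3K4me1 libraries. Among all H3K4me1 consensus regions 21.9% were held by 3 of 3 libraries, and among the 7966 overlapping H3K4me3 22.8%. In the other direction, 33.5% of the 30937 regions held by a single H3K4me1 library lay outside H3K4me3, against 6.78% of the 6594 held by 2 libraries (interval 6.20% to 7.41%) and 1.41% of the 1845 held by 3 (interval 0.963% to 2.06%). The more H3K4me1 libraries held a region, the less often it lay outside H3K4me3. Regions of 3 libraries were also wider, with medians of 473.5 bp for members and 622 bp for the others, and the part of width in this gradient was not tested.

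Where 2 libraries held a member, their summits mostly lay close together, although merging itself requires peaks to meet. The distance between the best summits of the pair had a median of 83 bp over 447 members (10th to 90th percentile 14 to 244.4 bp) and 89 bp over 6147 other regions of 2 libraries (11 to 323 bp). The summits lay within 150 bp of each other in 74.3% of these members and in 66.9% of the others. The members were also narrower, with a median width of 364 bp against 473 bp.

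The members were lower peaks than the other consensus regions. Summit height, the number of fragments stacked at the summit, was recovered from the deposited values. It had a median of 6 fragments over members in each of the 3 H3K4me1 libraries, against 7 in each library over the others. Over all deposited H3K4me1 peaks the median was also 6 fragments in each library. Fold enrichment, the deposited linear ratio of fragment pileup to local background, had medians of 4.81, 4.80 and 5.12 over the members in replicates 1, 2 and 3. The others had 5.61, 5.25 and 5.28. The middle ranges overlapped in every library, and in replicate 3 the medians were closest. A highest summit of 10 or more fragments was reached by 57 of the 473 members and by 2019 of the 7966 others, a smaller share of the members. The 75th percentile of the highest summit was 8 fragments over members and 10 over the others.

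**Figure D1:**
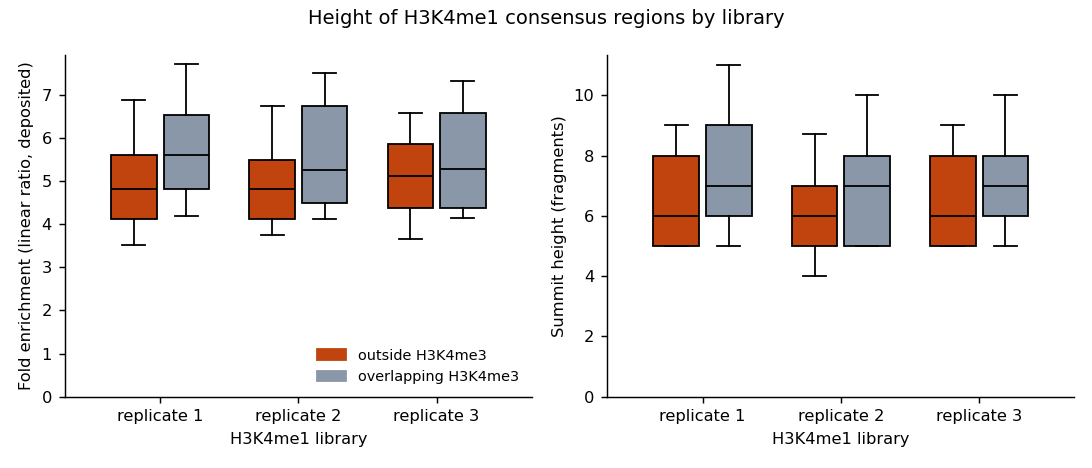
Fold enrichment (left, linear ratio) and summit height (right, fragments) of H3K4me1 consensus regions in each H3K4me1 library, for regions outside H3K4me3 (red) and overlapping it (grey). Lines are medians, boxes the 25th to 75th percentile and whiskers the 10th to 90th. The median height is 6 fragments outside and 7 overlapping in all 3 libraries.

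The share of regions outside H3K4me3 was graded with height. It was 11.8% of the 507 regions with a highest summit of 4 to 5 fragments (interval 9.31% to 14.9%), 8.45% at 6 fragments, 6.67% at 7, 4.76% at 8, 3.45% at 9 to 12 and 2.67% of the 450 regions at 13 or more (interval 1.53% to 4.60%). Neighbouring steps had overlapping intervals, whereas the lowest and highest steps did not.

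**Figure D2:**
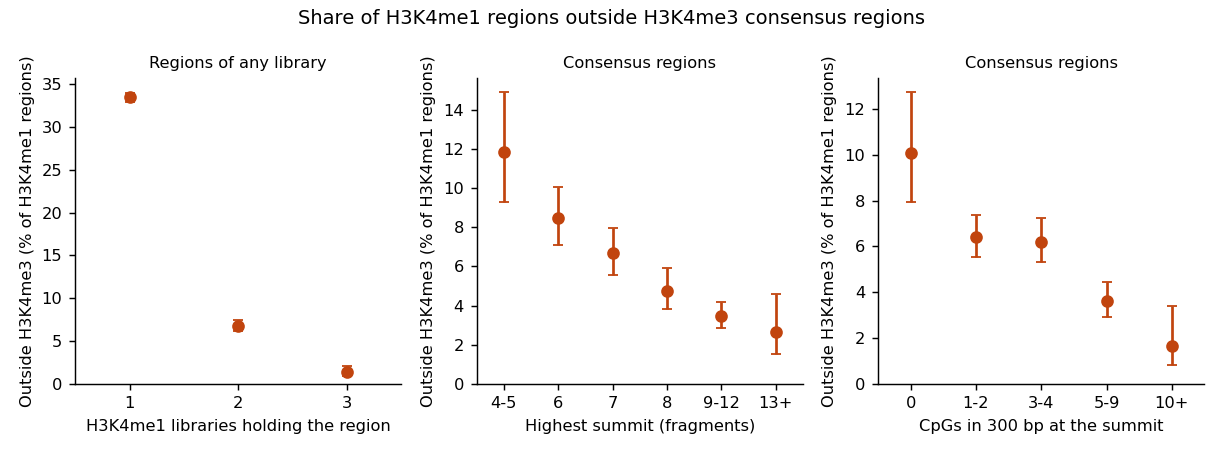
Share of H3K4me1 regions that lie outside H3K4me3 consensus regions (percent), by the number of H3K4me1 libraries holding the region (left), the highest summit in fragments (middle) and the CpGs in the 300 bp at the best summit (right). Points are shares and bars Wilson 95% intervals. The share is lower with more libraries, from 33.5% to 1.41%, with taller summits, from 11.8% to 2.67%, and with more CpGs, from 10.1% to 1.65%.

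Each H3K4me1 library was also left out in turn. Regions held by the other 2 H3K4me1 libraries were looked up in it. With replicate 1 held out, 26 of 107 regions outside H3K4me3 (24.3%) had a peak there, against 62.8% of 2733 regions overlapping H3K4me3. With replicate 2 held out the shares were 14.4% of 174 and 42.4% of 4143. With replicate 3 held out they were 9.96% of 241 and 39.4% of 4528. Regions outside H3K4me3 were thus found again less often in 3 of 3 held-out libraries, by 28.0 to 38.5 percentage points (mean 16.2% ± 7.35 against 48.2% ± 12.8, SD of the difference 5.70 points, n = 3). The two-sided exact permutation test over the signs of the 3 differences gave p = 0.25, the smallest value that 3 libraries allow, so the design cannot reach 0.05. The 3 held-out sets share libraries and regions. Regions found again outside H3K4me3 numbered 26, 25 and 24, beside 26 members of 3 libraries. Those overlapping H3K4me3 numbered 1717, 1757 and 1783, beside 1819 others of 3 libraries. The look-up thus largely restates the counts by number of libraries given above and is no independent support. The others were also wider, and the part of width was not tested.

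The shares were lower outside H3K4me3 in each class of fold enrichment as well, with overlapping intervals in 2 cases. Below a fold of 5, the shares found again were 9.68%, 14.0% and 4.44% outside and 51.8%, 27.3% and 26.5% overlapping, and with replicate 2 held out the intervals overlapped (7.29% to 25.3% and 23.8% to 31.2%). For regions whose higher fold was between 5 and 7, the shares found again were 23.4%, 10.8% and 14.3% outside H3K4me3 (replicates 1, 2 and 3 held out) and 59.5%, 39.1% and 35.3% overlapping it. Above a fold of 7 they were 66.7% of 12, 29.2% of 24 and 9.38% of 32 outside, against 73.7%, 53.0% and 51.8%, and with replicate 1 held out the intervals overlapped (39.1% to 86.2% outside, 70.5% to 76.7% overlapping).

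The same look-up was made for H3K4me3. When a region was called outside on 2 H3K4me3 libraries, both of which had to hold an H3K4me3 region for it to count, the third library had an H3K4me3 peak in 55.6% of 842, 39.6% of 712 and 38.9% of 694 such regions (replicates 1, 2 and 3 held out). For regions overlapping H3K4me3 the shares were 97.9%, 95.2% and 95.2%. A large part of the regions called outside on a pair of libraries therefore had an H3K4me3 peak in the remaining one. These sets are larger than the 473 members. They add regions whose H3K4me3 call needed the left-out library, and most of these hold a peak there by construction. Among the 473 members, replicates 1, 2 and 3 had an H3K4me3 peak in 22.4%, 11.6% and 13.1%.

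**Figure D3:**
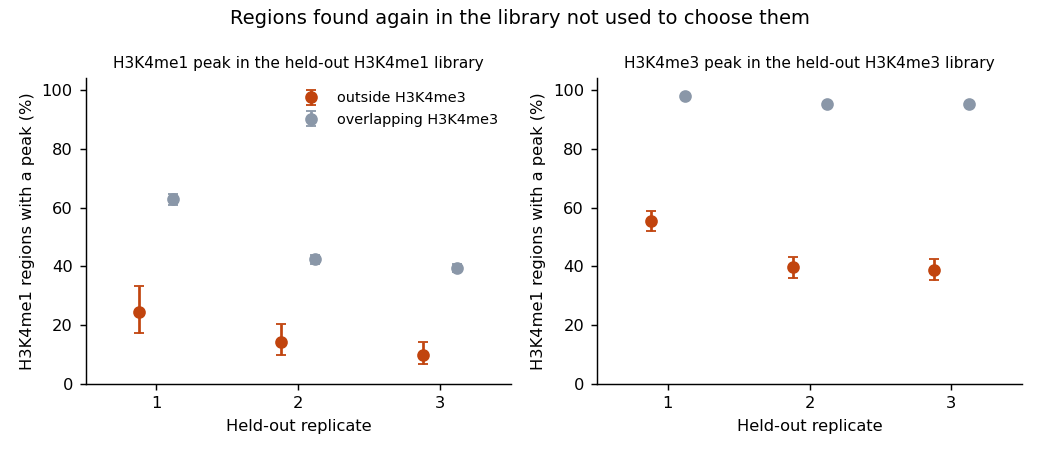
Share of H3K4me1 regions (percent) with an H3K4me1 peak in the H3K4me1 library left out of the choice (left) and with an H3K4me3 peak in the H3K4me3 library left out (right), outside (red) and overlapping (grey) H3K4me3. Bars are Wilson 95% intervals. The red points lie at 9.96% to 24.3% on the left and at 38.9% to 55.6% on the right, below the grey points in each of the 3 libraries.

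Single-library H3K4me3 touched 217 of the 473 members (45.9%), 211 through 1 library and 6 through 2 libraries whose peaks did not meet in a common region. The remaining 256 had no H3K4me3 peak in any of the 3 libraries. Replicate 1, the longest H3K4me3 list, touched 106 members, replicate 2 touched 55 and replicate 3 touched 62. These H3K4me3 peaks were weak and narrow within their own lists. By the rule they met no H3K4me3 peak of another library, and they were not compared with other such peaks. Their median −log10 q-values were 2.48, 2.58 and 2.27 in replicates 1, 2 and 3, against 3.70, 3.87 and 3.54 over all peaks of the library, and their median widths were 404.5, 298 and 441 bp, against 857, 821 and 821 bp.

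In summit height, CpG and distance to a TSS, the 256 members free of H3K4me3 in every library resembled the 217 that were not. Compared with the 217, they were narrower, lower in median fold in replicates 1 and 2, and less often held by 3 H3K4me1 libraries. Both had a median highest summit of 7 fragments, median CpG observed over expected was 0.170 and 0.172, and 83.2% and 86.2% lay farther than 5 kb from a TSS. Median fold enrichment was 4.63 and 4.91 in replicate 1, 4.79 and 5.25 in replicate 2 and 5.12 in both in replicate 3. The widths had medians of 347 and 388 bp, and 9 of the 256 were held by 3 H3K4me1 libraries, against 17 of the 217.

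Most members lay close to an H3K4me3 consensus region, which by the rule they could not touch. The distance to the nearest H3K4me3 consensus region had a median of 3234 bp (25th to 75th percentile 1063 to 8857 bp). An H3K4me3 region lay within 1 kb of 116 members and within 5 kb of 286 (60.5%). The others overlap H3K4me3 by the rule and give no background for these counts. On both sides, 99 members (20.9%) had one within 5 kb, against 683 others (8.57%), where the H3K4me3 region overlapped was not counted. At the far end, 56 members were more than 20 kb away and 18 more than 50 kb. The 256 members with no H3K4me3 peak in any library had a median of 2902 bp to the nearest consensus region and 1415.5 bp to the nearest H3K4me3 peak of any library.

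The rule turns on a single shared base. Members with the smallest gaps lay 7 bp from an H3K4me3 region in an intron of Cotl1, which encodes an actin-binding protein, 8 bp away in an intron of Tmem50a and 16 bp away in an intron of Gm26733. Their fold enrichments were 4.79 to 5.61. Regions just on the other side shared 3 bp (nearest TSS Btbd16), 15 bp (Stk24) and 18 bp (Ldlrad4) with H3K4me3, with fold enrichments of 3.43 to 5.61. These borderline cases were few, since 6961 of the 7966 other regions (87.4%) lay wholly within H3K4me3 and 90 were covered over less than 50% of their length.

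Members were distal from promoters. Of the 473, 400 (84.6%, interval 81.0% to 87.5%) lay farther than 5 kb from any TSS of a protein-coding transcript, against 67.7% of the others (interval 66.7% to 68.7%). The median distance was 22716 bp against 13252.5 bp. Leaving out H3K4me3 by itself took away nearly all consensus regions within 1 kb of a TSS, and only 0.242% of these 1238 were members. Most regions overlapping H3K4me3 were distal too, as the 67.7% shows. Farther out the share of members was 4.98% at 1 to 5 kb, 6.39% at 5 to 20 kb, 6.83% at 20 to 50 kb and 7.73% beyond 50 kb, with overlapping intervals between neighbouring steps. Counting the TSSs of all annotated transcripts, noncoding ones included, 72.1% of members were farther than 5 kb.

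**Figure D4:**
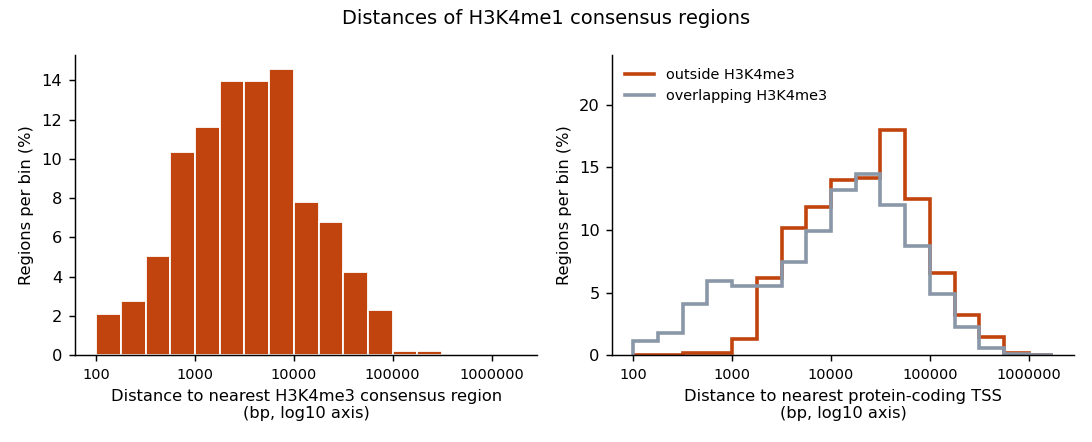
Distance of the members to the nearest H3K4me3 consensus region (left) and of members (red) and other H3K4me1 consensus regions (grey) to the nearest protein-coding TSS (right), in percent of regions per bin on a log10 axis in bp. Regions nearer than 100 bp are not drawn (19 members on the left; 1 member and 203 others on the right). The members peak between 1 and 10 kb from H3K4me3, and few lie within 1 kb of a TSS.

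By annotation, the best summit was in an intron for 346 members (73.2%), between genes for 105 and in an exon for 22. For the others the shares were 68.4% intronic, 25.5% intergenic and 6.11% exonic. No member covered a TSS of a protein-coding transcript, and 1 covered a TSS of any kind, that of Gm37470 within Dennd1b. The 3 members within 1 kb of a protein-coding TSS lay 78 bp from that of Scamp5, 450 bp from that of Nlrp1b and 986 bp from that of Mbnl1. The nearest gene had promoter H3K4me3, here an H3K4me3 consensus region within 1 kb of a TSS, for 92.6% of members and 92.4% of the others, against 55.2% of all 21840 protein-coding genes, so the members shared this feature with H3K4me1 regions at large.

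The members were poor in CpG. CpG observed over expected, the number of CpGs relative to that given by the C and G content, had a median of 0.171 over members and 0.223 over the others. A merged region held a median of 3 CpGs against 6, and 46 members (9.73%) held none, against 3.11% of the others. GC content differed less, with medians of 44.6% and 45.8%. Among distal regions with a highest summit of 6 to 8 fragments, a comparison chosen after seeing the data, the observed over expected medians were 0.172 for 257 members and 0.204 for 2838 others. The share of regions that were members was 10.1% for the 605 with no CpG in the 300 bp window and 1.65% for the 423 with 10 or more (interval 0.804% to 3.38%). H3K4me3 itself favours CpG-rich sequence, so this difference and the rule are not independent.

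Repeats made up more of the members than of the other regions, but only a small part of them. At least 50% of the region was repeat-masked in 49 members (10.4%, interval 7.93% to 13.4%) and in 4.88% of the others (interval 4.43% to 5.38%), and at least 80% in 19 (4.02%) and 0.992%. The difference at 50%, 5.48 percentage points, was 2.99 points among distal regions with a highest summit of 6 to 8 fragments. Masked sequence is mostly old and diverged, and sequence that still recurs was rarer. At least 50% of the 32-base words recurred elsewhere in the genome in 7 members (1.48%) and in 62 others (0.778%), and the intervals overlapped. The most repeated member (chr1:138864638-138865163, nearest TSS 2310009B15Rik) was masked over its whole length, and its words occurred a median of 62 times in the genome. Its summits of 5 and 6 fragments in replicates 1 and 3 therefore cannot be assigned to this copy with certainty. All 7 of these members were held by replicates 1 and 3, and replicate 2 held none of them. Of the 149 members held by replicates 1 and 3, 13.4% were masked over at least 50% of their length, against 9.22% for replicates 1 and 2 and 8.64% for replicates 2 and 3.

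Chromosome ends contributed little. Within 1 Mb of the first or last assembled base lay 4 members (0.846%), against 132 others (1.66%), namely an intergenic region near Kif3c on chromosome 12 that was 86.5% masked, and introns of Gm20767 on chromosome 13, Kmt5b on chromosome 19 and Fam107b on chromosome 2. Their summits were 5 to 9 fragments high. Over the chromosomes, the share of members among consensus regions ran from 3.98% on chromosome 14 to 7.40% on chromosome 1. Chromosome X held 3 members among 30 regions and chromosome Y 0 among 8.

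Sequence motifs of B cell factors were present at similar shares in members and others, with overlapping intervals for 13 of the 14 words searched. Each motif was searched on both strands in the 300 bp window. The PU.1 word GAGGAAGT was present in 5.71% of members and 5.31% of the others, the composite ETS-IRF word GGAANNGAA in 12.3% and 11.8%, the octamer ATGCAAAT in 3.38% and 3.62%, the E-box CAGCTG in 14.0% and 15.6%, and the AP-1 word TGANTCA in 11.4% and 9.67%. The word CTANNNNTA of MEF2 factors was present in 35.5% of members (interval 31.3% to 39.9%) and 29.5% of the others (interval 28.5% to 30.5%) and was the exception. The word is AT-rich and the members had slightly lower GC content, and the part of this was not tested. Over whole regions, which are wider for the others, the MEF2 word was present in 42.5% of members and 44.8% of the others. At least 1 of the 14 words was present in 77.8% and 77.4%. A match is a description of the letters and not a bound site.

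The strongest members shared by all 3 H3K4me1 libraries were mostly intronic, as were the members at large. Of the 12 with the highest fold in their weakest library, 9 were in introns and 3 between genes. The intronic share was 73.2% over all members and 68.4% over the others. Of the 12, 4 had no H3K4me3 peak in any library. The first lay in an intron of Rapgef5 (chr12:117599885-117600346), an exchange factor for RAP GTPases, with summits of 9, 9 and 11 fragments and fold enrichments of 7.02, 6.86 and 6.23 in replicates 1, 2 and 3. It was 19843 bp from the nearest H3K4me3 consensus region and overlapped a weak H3K4me3 peak of replicate 3 (−log10 q-value 1.77).

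The tallest member of all lay in an intron of Col15a1 (chr4:47246958-47247173), a collagen gene, with summits of 14, 19 and 10 fragments. Its fold enrichments were 5.31, 10.5 and 5.71, so replicate 2 stood above the other libraries. The Nlk intron (chr11:78690833-78691226), in the gene of a kinase that acts on Wnt and FOXO signalling, had summits of 6, 7 and 6 fragments and was the strongest member of 3 libraries with no H3K4me3 peak in any library. It lay 6147 bp downstream of the Nlk TSS and 5157 bp from the nearest H3K4me3 consensus region.

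A member in an intron of Ncoa5 (chr2:165028970-165029661) had summits of 7, 7 and 5 fragments, no H3K4me3 in any library, and lay 25966 bp from the TSS of Cd40, the receptor through which GC B cells receive T cell help. An intronic member of Vps13d with summits of 5, 6 and 9 fragments and one within the noncoding gene Gm14005 with 6, 7 and 9 also had no H3K4me3 peak. The rest of the 12 lay in introns of Ube2e3, a ubiquitin-conjugating enzyme, Lats2, a kinase of the Hippo pathway, and Nsd3, a histone methyltransferase, or between genes near Nxt1, Gmds and Osbpl8. Their summits ran from 5 to 14 fragments, and each of these overlapped an H3K4me3 peak of 1 library. The other 14 members of 3 libraries included introns of Cul3, Lpp, Fryl and Exoc4 and an exon of Fbxw7, and over all 26 the median distance to H3K4me3 was 3774 bp.

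Members lay near a number of genes of the GC reaction. The gene lists were fixed with earlier results of these data known, so the counts are descriptions without a test. A member lay within 50 kb of a TSS of 616 of 21840 protein-coding genes (2.82%), of 4.40% of the 12057 genes with promoter H3K4me3, and of 0.879% of the 9783 without. Of 76 GC B cell genes, 13 (17.1%) had a member within 50 kb, namely Cd40, Nfkb1, Irf4, Foxo1, Gpr183, Id3, Ezh2, Elf1, Prkcb, Nedd9, S1pr1, H2-Ab1 and H2-Aa. All 76 had promoter H3K4me3, and 69 (90.8%) had an H3K4me1 region overlapping H3K4me3 within 50 kb, against 31.6% of all genes and 47.3% of those with promoter H3K4me3. The windows of the 13 genes held 16 members, 9 of which had no H3K4me3 peak in any library, and H2-Ab1 and H2-Aa shared 1. For some the nearest TSS was that of another gene (Ncoa5 for Cd40, H2-Ob for H2-Ab1 and H2-Aa, Rpl11 for Id3 and Sugt1 for Elf1). Of 12 genes the study singled out, 1 (Zbtb20, a transcriptional repressor) had a member, and 9 had another H3K4me1 region. The lists for other cell types gave 0 of 18 T cell genes, 1 of 14 myeloid genes (Cd14), 0 of 10 erythroid genes and 0 of 16 neuronal genes. These lists differ in the share of genes with promoter H3K4me3 (27.8%, 21.4%, 40% and 25%), and the part of this in the counts was not tested.

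Within 20 kb of a TSS, 6 of the GC B cell genes had a member, all of 2 libraries. In an intron of Ezh2, the H3K27 methyltransferase needed for the GC reaction, a region 8335 bp from the TSS (chr6:47586469-47586695) had summits of 7 and 6 fragments in replicates 1 and 2 and no H3K4me3 peak in any library. An intron of Prkcb, the kinase downstream of the B cell receptor, held a region 15675 bp from the TSS with summits of 6 and 5 fragments in replicates 2 and 3, and another 31409 bp away with 5 and 4 in replicates 1 and 2. A region in H2-Ob, 15982 bp from the TSS of H2-Ab1, an MHC class II chain that presents antigen to T cells, had summits of 8 fragments in replicates 1 and 3.

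The Gpr183 member, near the gene of an oxysterol receptor that guides B cell positioning, lay in an intron of Ubac2 and 50 bp from H3K4me3. It was 95.4% repeat-masked with 63.6% of its words recurring, so its place is uncertain. S1pr1, an egress receptor, had intergenic members 19372 and 39575 bp away, with summits of 6 and 4 fragments in replicates 1 and 2 and of 7 and 7 in replicates 2 and 3.

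Foxo1, the transcription factor of the dark zone program, was among the 5 places where 3 or more members lay within 50 kb of each other. Its 3 members, all in introns, lay 11385, 30119 and 43964 bp downstream of the TSS. The first had summits of 5 and 6 fragments in replicates 1 and 2 and the last 6 and 6 in the same replicates, and neither had an H3K4me3 peak in any library. The middle one (chr3:52298455-52298920) had 16 fragments and a fold enrichment of 11.2 in replicate 1, the highest fold of any member in that library, and 8 fragments and 4.67 in replicate 3, with no peak in replicate 2. It overlapped an H3K4me3 peak of replicate 1 alone and lay 1065 bp from an H3K4me3 consensus region.

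**Figure D5:**
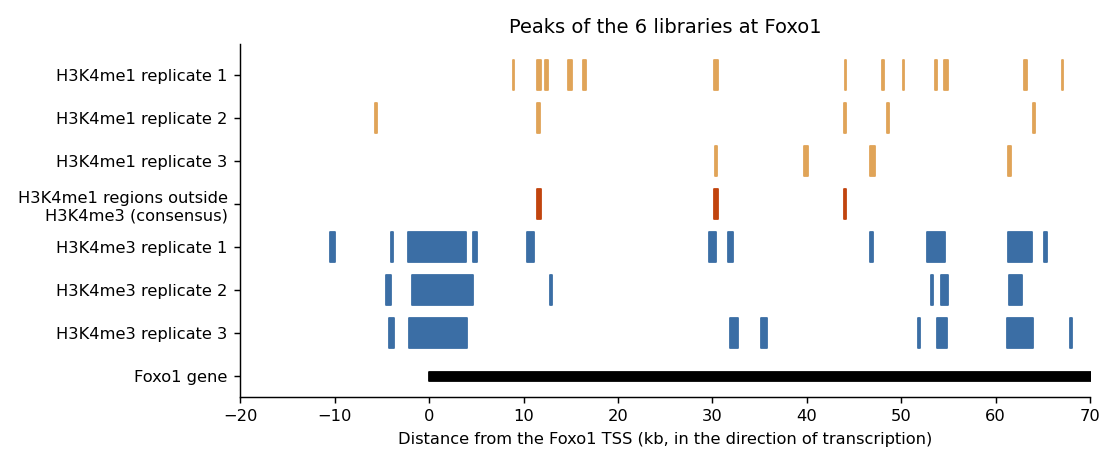
Peaks of the 3 H3K4me1 (ochre) and 3 H3K4me3 (blue) libraries at Foxo1, by distance from its TSS in kb, with the H3K4me1 consensus regions outside H3K4me3 (red) and the gene (black). The 3 red regions are each held by 2 of the 3 H3K4me1 libraries, and the broad H3K4me3 domain at the TSS is held by all 3 H3K4me3 libraries.

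The other groups lay at Mbnl1, a splicing regulator (4 members), Tmem170b (3), Susd1 (3) and the far end of Pvt1 and beyond (3), Pvt1 being the noncoding gene next to Myc. At Mbnl1 all 4 members lay in introns of the gene, from 6303 bp upstream to 36081 bp downstream of the nearest annotated TSS. The upstream members were therefore upstream of a TSS inside the gene and not of the gene itself. Summits were 4 to 9 fragments high, and 3 of the 4 overlapped an H3K4me3 peak of 1 library. At Pvt1 they lay 373232 to 413719 bp from the Myc TSS, with summits of 5 to 8 fragments. None of the 16 members in these 5 groups was held by all 3 H3K4me1 libraries.

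The 5 members farthest from any protein-coding TSS had summits of 4 to 8 fragments. The farthest was 717101 bp from Rpia with summits of 8 and 4 fragments, followed by one 458273 bp from Dmac1 with 4 and 4 that was wholly repeat-masked, one 417509 bp from Insc with 5 and 4, and 2 of the Pvt1 group. The member farthest from an H3K4me3 consensus region (210076 bp) lay beside the Nlrp1b TSS (chr11:71231183-71231384), the gene of an inflammasome sensor without promoter H3K4me3 here, with summits of 4 and 6 fragments, and an H3K4me3 peak of a single library lay 190 bp from it. The next lay at Insc (144441 bp), Prkdc (99384 bp), Fars2 (90951 bp) and Aldh1a2 (86661 bp), with summits of 4 to 8 fragments.

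The number of members changed with how peaks were filtered and which libraries were used. Keeping the 10000 best peaks of each library put 2644 of 4985 consensus regions outside H3K4me3 (53.0%), and keeping peaks with a −log10 q-value of at least 5 put 281 of 1242 there (22.6%). The cut at 10000 took away more of the H3K4me3 lists (41936 to 46707 peaks) than of the H3K4me1 lists (11922 to 24136 peaks). Leaving out 1 H3K4me1 library gave 107 (without replicate 1), 174 (without replicate 2) and 241 members (without replicate 3), and leaving out 1 H3K4me3 library gave 842, 712 and 694. With 1 library left out, both others of that mark had to hold a region. By itself this takes H3K4me1 regions away, or leaves more of them outside H3K4me3. The distal share of members stayed between 82.2% and 91.6% over these 6 omissions.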

How the data were processed

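Peak lists of 3 H3K4me1 (narrow) and 3 H3K4me3 (broad) libraries were used, called by the authors in each library separately. The tools named in the submitters' processing notes were BWA, Picard, HOMER and Genrich with build mm10. Caller settings and control were not given in the sources used here. The deposited fold enrichment is a linear ratio, beside the authors' −log10 p-value and −log10 q-value, with lowest −log10 q-values of 1.31 to 1.32 (H3K4me1) and 1.02 to 1.14 (H3K4me3). The score column of the deposited lists was not used. Overlapping or touching peaks were merged. Regions of 2 or more libraries were kept, and 1 shared base counted as overlap. Summit heights were recovered from fold and −log10 p-value as Poisson counts, whole for 100% of H3K4me1 peaks within 0.001 of the −log10 p-value. TSSs came from the GENCODE vM21 basic annotation and sequence with soft-masked repeats from RefSeq GRCm38. Regions described singly were the 12 strongest of 3 libraries, members near genes of the lists, groups of 3 or more, the 5 farthest from a TSS or H3K4me3, chromosome ends and both sides of the overlap limit. The most repeated members, further members of 3 libraries, exons named and the 3 members nearest a TSS were picked after seeing their values. Members and lists were chosen with earlier results of these data known. Merging and held-out look-up were tested on simulated peaks. Python 3.11.15, numpy 2.4.6, pandas 2.3.3 and scipy 1.17.1 were used. Regions prone to spurious signal were not masked. The marker check of 1 further cell type and the sequence of 1 further member are not reported here.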

Additional observations from a re-analysis of the deposited data

How the results depend on the processing

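Over 55 alternatives, 22 values stayed, 33 moved and 0 changed direction. A value stayed if it kept within its counting interval, replicate spread or 1.5 times its count. Held-out, repeat and CpG differences were judged by sign alone. Counts, shares and distances have no direction to change. Leaving out a library and keeping the 10000 best peaks act on the counts by themselves, as given above. The cause of the other moves was not tested. The count of 473 and its share of 5.60% became 26 and 1.41% for regions of 3 H3K4me1 libraries, 256 and 3.03% when H3K4me3 of any single library also counted, 281 and 22.6% at a −log10 q-value of at least 5, and 2644 and 53.0% with the 10000 best peaks. The share was 6.67% when H3K4me3 had to cover 50% of a region and 4.24% when H3K4me3 within 1 kb also counted. Leaving out 1 library at a time gave 107 to 842 members, shares of 3.77% to 9.98%, distal shares of 82.2% to 91.6% and median distances to H3K4me3 of 3104.5 to 3801 bp. The distal share was 99.4% at a TSS distance of 1 kb and 72.1% with TSSs of all transcripts. The median distance to H3K4me3 was 2902 bp for members with no H3K4me3 peak in any library and 121 bp to H3K4me3 of any library. The repeat-masked share was 7.69% in members of 3 libraries and 4.02% at 80% masking. The height contrast, −0.22 on the log2 scale, was −0.13 with fold enrichment. A motif was held by 81.8% of members over whole regions, against 88.3% of the wider other regions. The held-out difference was −28.5 and −35.7 percentage points under its 2 alternatives. No paired analysis was possible because no test compared the marks, and the held-out differences were taken within a library and use no pairing by replicate number. Depth is unknown, median summits of 6 fragments limit the precision for most members, and narrow and broad calling differ between the marks.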
